A study of Homo sapiens with 24 samples.

Results

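The family of miR-130, miR-301 and miR-454 is a set of microRNAs (miRNAs) that share a seed, the stretch near the 5′ end through which a miRNA pairs with its target mRNAs. It was followed across miR-seq libraries of OV90 cells, a long-established line from an epithelial ovarian cancer. The 7 members were chosen by name from the 2656 mature miRNAs of the table, and all 7 were among the 905 miRNAs abundant enough to be tested. They are hsa-miR-130a-3p, hsa-miR-130b-3p, hsa-miR-301a-3p, hsa-miR-301b-3p and hsa-miR-454-3p, called the 3p members here, and hsa-miR-130b-5p and hsa-miR-454-5p, which come from the opposite arm of the miR-130b and miR-454 hairpins. The 24 libraries fell into 6 groups of 4, expressing an shRNA that targets RELA (shRELA), one that targets RELB (shRELB) or a negative control (shNeg), in adherent or in spheroid culture. The genotype label of the shNeg libraries reads wild type, and their titles name the negative control. All groups carried a doxycycline-inducible construct and received 1 µg/ml doxycycline for 72 h. Adherent cells grew in medium with fetal calf serum. Spheroids grew in ultra-low attachment vessels in defined medium with EGF and FGF, a culture that enriches for tumor-initiating cells (TICs), so that attachment and medium cannot be told apart. The labels do not say whether the 4 replicates of a group were separate cultures, and p-values measure only the spread between these libraries, which may be technical. The sources do not say whether the cells of a construct were 1 clone, and miR-seq does not read RELA or RELB mRNA, so the extent of silencing is not shown by these data. The study reported a Western blot check of the silencing in OV90 cells.

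A miRNA is cut from a hairpin precursor, and either arm can yield a mature strand that is loaded into an Argonaute protein. The loaded strand pairs with mRNAs mainly through its seed, so miRNAs with the same seed have overlapping sets of predicted targets. Family members have been studied as regulators of TGF-β signaling, and miR-301a-3p is known to repress NKRF, an inhibitor of NF-κB. RELA is a subunit of canonical NF-κB and RELB of the non-canonical branch.

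The mature sequences below were taken from RefSeq (GRCh38.p14), in which 6 of the 7 members matched by name and miR-130a-3p had no entry. They are shown because the shared seed is what defines the family, and capitals mark the seed, bases 2 to 8 from the 5′ end. The 3p members with a sequence were:
miR-130b-3p: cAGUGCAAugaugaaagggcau
miR-301a-3p: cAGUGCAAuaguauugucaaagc
miR-301b-3p: cAGUGCAAugauauugucaaagc
miR-454-3p: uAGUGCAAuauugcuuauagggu
All 4 carried the seed AGUGCAA, found in 6 of the 2370 mature miRNAs of the RefSeq table (0.2532%). That count leaves out miR-130a-3p for want of an entry, although AGUGCAA occurs in the MIR130A hairpin. The remaining carriers with an entry, miR-3666 and miR-4295, had no count in any library. miR-301a-3p and miR-301b-3p differed only by A10G and G11A, with the base of miR-301a-3p first and positions counted from the 5′ end. A read with a sequencing error at these bases could be assigned to the other miRNA.

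The 5p members, from the opposite arms, carried other seeds. Their sequences, with bases 2 to 8 in capitals, were:
miR-130b-5p: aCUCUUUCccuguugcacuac
miR-454-5p: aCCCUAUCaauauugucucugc
The hairpin of MIR130B is shown with both mature arms in capitals, the 5p arm first, because the balance of its arms differed between groups:
MIR130B: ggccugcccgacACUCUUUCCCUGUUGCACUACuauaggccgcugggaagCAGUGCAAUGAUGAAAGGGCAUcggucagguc

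The 5 hairpins lay in 3 places of the genome (GRCh38, with overlaps from GENCODE v44). MIR130A (chr11:57641198-57641286, plus strand) lay in an intron of the lncRNA gene MIR130AHG. MIR301B (chr22:21652981-21653058, plus strand) and MIR130B (chr22:21653304-21653385, plus strand) lay close together in a lncRNA gene that has no symbol in that annotation, the first outside its exons and the second in an exon. Between the 3p sequence of miR-301b and the MIR130B hairpin there were 256 bases. MIR454 (chr17:59137758-59137872, minus strand) and MIR301A (chr17:59151136-59151221, minus strand) lay in introns of SKA2, a gene for a kinetochore protein, with 13263 bases between them.

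Total counts were 3797175 to 8283549 in adherent and 959141 to 3580931 in spheroid libraries, with the lowest totals in spheroid shNeg (959141 to 1580252). By counting error alone, a miRNA listed at 0 could have stood at up to 3 counts, worth 0.495 to 0.800 CPM (counts scaled to a common library size) in adherent and 0.860 to 2.29 CPM in spheroid libraries. Spheroid shNeg replicate 1 stood apart, with a count for 432 miRNAs where replicates 2, 3 and 4 had one for 813 to 885. For the members, values without it are given beside those with it in the comparisons that use it. The shares of all tested miRNAs called, the likeness of profiles and the related miRNAs outside the family rest on all libraries. Of 6 epithelial markers, miR-200c-3p and miR-205-5p were abundant in every library (at least 1641 and 453 CPM), and miR-200a-3p, miR-200b-3p and miR-429 were scarce (at most 12.2, 40.6 and 3.69 CPM). The 5 blood markers summed to 7.44 to 50.9 CPM. Some lists moved with the family in some comparisons and against it in others. The arms of miR-126, listed as endothelial, summed to 2162 to 9282 CPM in adherent and 570 to 1732 CPM in spheroid libraries. In adherent culture they summed to 6481 to 7631 CPM with shNeg, 3993 to 9282 CPM with shRELA and 2162 to 2478 CPM with shRELB. In spheroids they summed to 761 to 960 CPM with shNeg and 1213 to 1732 CPM with shRELA. In shRELB spheroids they summed to 570 to 1263 CPM, which overlapped with shNeg. The 4 mesenchymal markers summed to 227 to 257 CPM in adherent and 64.5 to 72.3 CPM in spheroid shNeg libraries, and to 175 to 195 CPM against 87.0 to 129 CPM with shRELB. With shRELA they were lower than with shNeg, at 22.7 to 47.9 CPM in adherent and 16.3 to 28.1 CPM in spheroid libraries. In spheroids, the epithelial markers summed to 3222 to 4630 CPM with shNeg and 7912 to 16338 CPM with shRELB. In adherent culture they summed to 4853 to 5075 CPM with shNeg and 7800 to 9635 CPM with shRELB. With shRELA they summed to 4489 to 8000 CPM in spheroid and 2486 to 3449 CPM in adherent libraries, the opposite direction to the family. The part of these lists in the results was not tested.

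**Figure D1:**
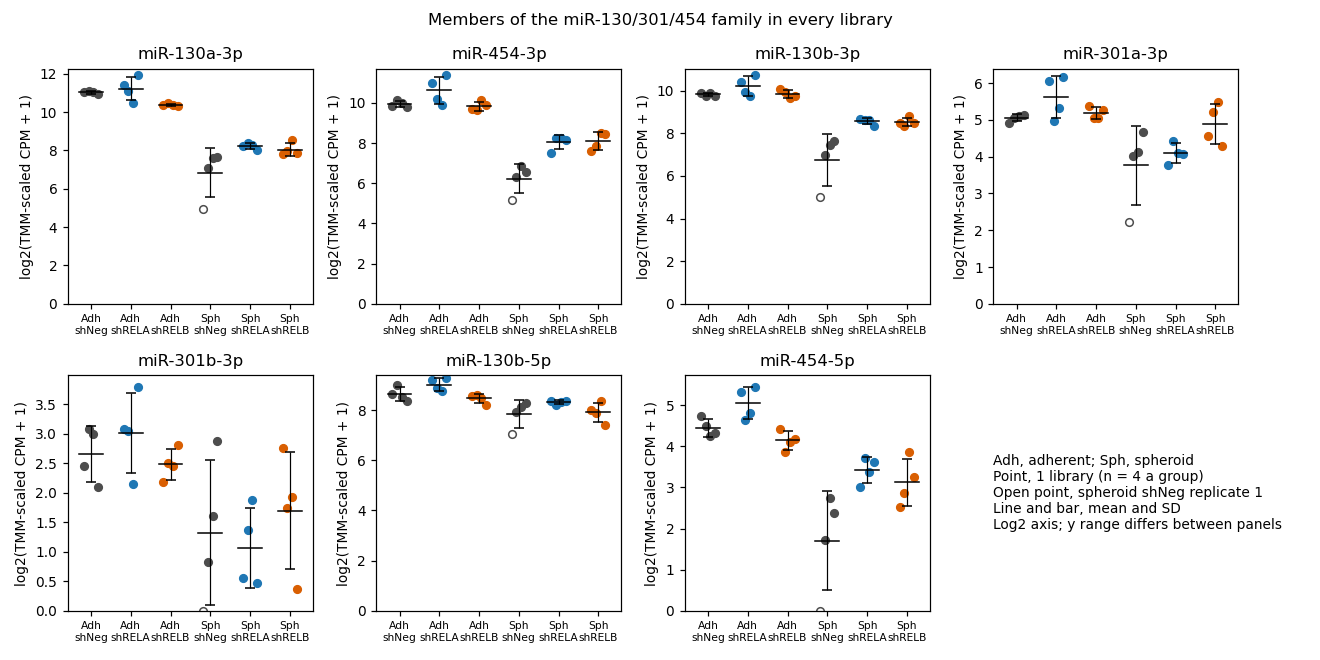
Level of each of the 7 members, as log2(CPM + 1) after TMM scaling, in every library of the 6 groups (point, 1 library; line and bar, mean and SD, n = 4; open point, spheroid shNeg replicate 1). The spheroid groups sit below the adherent groups for miR-130a-3p, miR-130b-3p and miR-454-3p under all 3 shRNAs, and the open point is the lowest of its group for all 7 members.

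In adherent shNeg cells, the family was led by miR-130a-3p, which ranked 48 of the 905 miRNAs by mean level. It was followed by miR-454-3p (rank 69), miR-130b-3p (74), miR-130b-5p (97), miR-301a-3p (229), miR-454-5p (257) and miR-301b-3p (376). Levels here are CPM after TMM scaling, as mean ± SD of 4 libraries, and mature miRNAs of this length give 1 read each, although capture can differ between sequences. The mean was 2097 ± 107 CPM for miR-130a-3p, 989.5 ± 116 CPM for miR-454-3p, 907 ± 38.5 CPM for miR-130b-3p and 403 ± 79.8 CPM for miR-130b-5p. The ranges of miR-454-3p and miR-130b-3p overlapped. Those of miR-301a-3p (29.3 to 33.9 CPM) and miR-454-5p (18.1 to 25.9 CPM) did not. miR-301b-3p was the rarest member, at 5.55 ± 2.01 CPM.

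In spheroid shNeg cells the order was another. miR-130b-5p led with 240 ± 77.9 CPM (rank 118), above miR-130a-3p (141.1 ± 80.3 CPM), miR-130b-3p (132 ± 74.5 CPM) and miR-454-3p (80.6 ± 33.4 CPM, rank 171). The ranges of neighbours among these 4 overlapped. miR-301a-3p (15.0 ± 8.60 CPM), miR-454-5p (3.04 ± 2.45 CPM) and miR-301b-3p (2.28 ± 2.82 CPM) were lowest, and the last 2 had at most 11 counts in any library of the group. Without replicate 1 the means were 277 CPM for miR-130b-5p, 178 CPM for miR-130a-3p, 166 CPM for miR-130b-3p, 95.8 CPM for miR-454-3p, 18.8 CPM for miR-301a-3p, 4.05 CPM for miR-454-5p and 3.04 CPM for miR-301b-3p, in the same order (n = 3). In spheroids with shRELA or shRELB, miR-130b-3p had the highest mean of the family, at 380 ± 35.6 CPM (rank 100) and 373 ± 55.1 CPM (rank 95).

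The first comparison was spheroid against adherent culture, which asks how the family differs in the TIC-enriching condition. miR-130a-3p, miR-130b-3p and miR-454-3p, the abundant 3p members, fell in spheroids under every shRNA. A miRNA was called changed at a false discovery rate (FDR) below 0.01, taken over all 905 miRNAs, with an absolute fold change above 2. In these bulk cultures, fewer cells that hold a miRNA and less of it per cell cannot be told apart.

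miR-130a-3p, the most abundant member, measured 2075, 2218, 2132 and 1964 CPM in the adherent shNeg libraries and 30.1, 134, 196 and 204 CPM in the spheroid shNeg libraries. No spheroid library came near the adherent range. Its level was 14.8-fold lower in spheroids (log2 fold change −3.89 ± 0.34 (SE), FDR 1.13e-11). Without spheroid shNeg replicate 1, the log2 fold change was −3.55 ± 0.23 (FDR 7.72e-18).

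miR-454-3p measured 924, 1142, 1012 and 879 CPM in adherent and 35.2, 79.4, 114 and 94.1 CPM in spheroid shNeg libraries. The groups lay far apart, and the level was 12.2-fold lower in spheroids (log2 fold change −3.61 ± 0.31, FDR 7.44e-12). Without replicate 1 the log2 fold change was −3.36 ± 0.27 (FDR 5.12e-15). The level of miR-454-5p, its opposite arm, was 6.52-fold lower (log2 fold change −2.71 ± 0.44, FDR 3.06e-06), at 18.1 to 25.9 CPM against 0 to 5.64 CPM. Without replicate 1 its log2 fold change was −2.32 ± 0.38 (FDR 9.99e-07).

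miR-130b-3p measured 935, 872, 945 and 875 CPM in adherent and 30.8, 124, 174 and 199.4 CPM in spheroid shNeg libraries, again with no overlap. Its level was 6.83-fold lower in spheroids (log2 fold change −2.77 ± 0.30, FDR 1.58e-09), and −2.45 ± 0.20 on the log2 scale without replicate 1 (FDR 1.85e-14). miR-130b-5p, from the opposite arm of the same hairpin, measured 402, 514, 366 and 330 CPM in adherent and 131, 243, 275 and 312 CPM in spheroid shNeg libraries. These groups did not overlap either, but the difference of 1.67-fold (log2 fold change −0.74 ± 0.22, FDR 0.00453) was below the fold change a call needs. Without spheroid replicate 1 it was −0.54 ± 0.19 on the log2 scale (FDR 0.0127), and without spheroid replicate 4 it was called (−1.08, FDR 1.87e-04).

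The miR-301 members were rare in both cultures. miR-301a-3p fell 2.14-fold (log2 fold change −1.10 ± 0.35, FDR 0.00834), from 29.3 to 33.9 CPM in adherent to 3.67 to 24.6 CPM in spheroid shNeg libraries. Without replicate 1 the log2 fold change was −0.78 ± 0.29 (FDR 0.0215), and the call was also lost without adherent replicate 1, 3 or 4 (FDR 0.011 to 0.0182). It was also lost with DESeq2 (−0.98), median-ratio size factors (−0.97), a mean of at least 10 CPM (−0.74), library totals (−0.64, FDR 0.129) and only the groups compared (−0.81, FDR 0.18). miR-301b-3p ranged from 3.27 to 7.47 CPM in adherent and from 0 to 6.32 CPM in spheroid shNeg libraries, overlapped between the groups, and was not called (log2 fold change −1.24 ± 0.67, FDR 0.11). Its log2 fold change was −0.86 ± 0.61 (FDR 0.23) without spheroid replicate 1, and it was called without spheroid replicate 4 (−2.54, FDR 0.00617).

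Of the 7 members, 5 were therefore called lower in shNeg spheroids and none higher, where 42.2% of all tested miRNAs were called and 20.9% were called lower. Without replicate 1, 4 members were called. The groups did not overlap for 6 members, all lower in spheroids, against 30.6% of all tested miRNAs. The median log2 fold change was −2.71 over the 7 members (−2.32 without replicate 1) and −0.26 over all tested miRNAs. miR-30e-5p, which the study used as the reference for its qRT-PCR, was itself called lower in spheroids (log2 fold change −1.69 ± 0.20, FDR 1.06e-08). That qRT-PCR compared each knockdown with the shNeg control of the same culture. Within spheroids miR-30e-5p averaged 386, 442 and 456 CPM with shNeg, shRELA and shRELB. In adherent libraries it averaged 1246, 1728 and 1143 CPM in the same order.

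With shRELA, 6 of the 7 members were called lower in spheroids than in adherent culture, where 32.6% of all tested miRNAs were called and 15.8% were called lower. miR-130a-3p measured 2674, 2178, 1407 and 3865 CPM in adherent and 298, 335, 306 and 254 CPM in spheroid libraries, an 8.49-fold difference (log2 fold change −3.09 ± 0.33, FDR 2.13e-09). Adherent replicates 1 and 4 were high and the 4 spheroid libraries lay close together. miR-454-3p was 6.31-fold lower (log2 fold change −2.66 ± 0.29, FDR 5.41e-09) and miR-130b-3p 3.26-fold lower (−1.70 ± 0.29 on the log2 scale, FDR 1.16e-05).

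miR-454-5p fell from 24.04 to 42.9 CPM in adherent shRELA libraries to 7.03 to 12.1 CPM in spheroids (log2 fold change −1.74 ± 0.36, FDR 1.98e-04). miR-301a-3p fell from 30.3 to 70.2 CPM to 12.6 to 20.5 CPM (log2 fold change −1.65 ± 0.34, FDR 1.54e-04). miR-301b-3p, with 1 to 6 counts in the spheroid libraries, was called lower (log2 fold change −2.61 ± 0.68, FDR 0.00193), and lost that call without adherent shRELA replicate 4 (−2.26, FDR 0.0113). miR-130b-5p again differed by less than a call needs (log2 fold change −0.73 ± 0.22, FDR 0.00614). No member overlapped between these groups, against 25.0% of all miRNAs that were lower without overlap, and the median log2 fold change was −1.74 over the members and 0.07 over all tested.

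With shRELB, 3 members were called lower in spheroids, where 25.0% of all tested miRNAs were called and 11.4% were called lower. miR-130a-3p measured 1304, 1407, 1330 and 1288 CPM in adherent and 222, 249, 365 and 232 CPM in spheroid libraries, 4.99-fold lower (log2 fold change −2.32 ± 0.32, FDR 4.15e-07). miR-454-3p was 3.26-fold lower (−1.70 ± 0.28, FDR 1.04e-05) and miR-130b-3p 2.51-fold lower (−1.33 ± 0.29, FDR 3.21e-04). The other 4 members were not called. The groups did not overlap for 4 members, against 22.3% of all tested miRNAs that were lower without overlap. Among them, miR-454-5p did not overlap between the groups (log2 fold change −1.03 ± 0.37, FDR 0.0234). It was called without spheroid shNeg replicate 1 or spheroid shRELB replicate 3. DESeq2 (−1.05, FDR 0.00129) and no filter on low counts (−1.22, FDR 0.0068) called it too, as did an FDR below 0.05. miR-301a-3p ranged from 32.0 to 40.2 CPM in adherent and from 18.6 to 43.7 CPM in spheroid libraries (log2 fold change −0.24 ± 0.32, FDR 0.58). The members' median log2 fold change was −1.03, and that of all tested miRNAs was −0.0028.

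**Figure D2:**
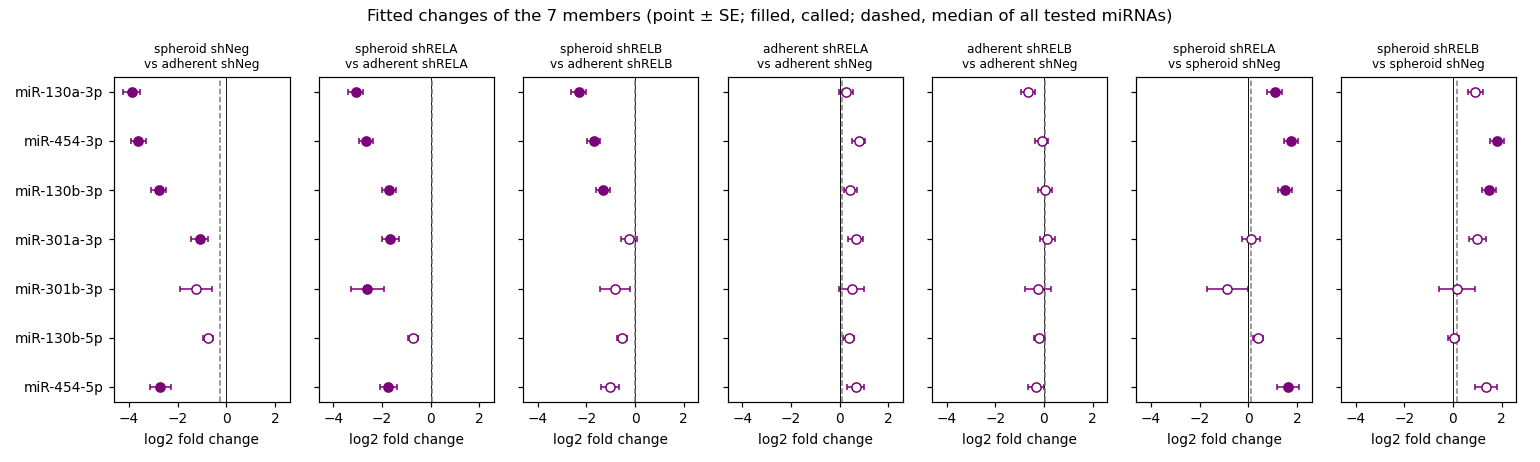
Fitted log2 fold change of each member in the 3 comparisons of spheroid with adherent culture and the 4 knockdown comparisons (point, estimate; bar, SE; filled, called; dashed line, median of all 905 tested miRNAs). The culture comparisons hold 5, 6 and 3 filled points, all below 0; the adherent knockdowns hold none, and the spheroid knockdowns hold 4 with shRELA and 2 with shRELB, all above 0.

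The second set of comparisons asked how silencing RELA or RELB changed the family within each culture. In spheroids, miR-454-3p and miR-130b-3p rose with each shRNA. In adherent culture, no member was called with either. Both knockdowns of a culture were compared with the same 4 shNeg libraries, so their results share any error of those libraries.

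miR-454-3p measured 35.2, 79.4, 114 and 94.1 CPM in spheroid shNeg libraries and 184, 307, 308 and 284 CPM in spheroid shRELA libraries. All shRELA libraries were above all shNeg libraries, and the level rose 3.34-fold (log2 fold change 1.74 ± 0.29, FDR 2.10e-05). With shRELB it measured 197, 231, 358 and 344 CPM, 3.49-fold higher than shNeg (log2 fold change 1.80 ± 0.29, FDR 1.13e-05). Without shNeg replicate 1 the log2 fold changes were 1.49 ± 0.25 (FDR 5.89e-06) and 1.56 ± 0.25 (FDR 2.28e-06).

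miR-130b-3p measured 30.8, 124, 174 and 199.4 CPM in spheroid shNeg libraries, and 411, 390.3, 389.9 and 329 CPM with shRELA. The lowest shRELA library lay above the highest shNeg library, and the level rose 2.86-fold (log2 fold change 1.52 ± 0.29, FDR 1.35e-04). With shRELB it measured 363, 323, 452 and 355 CPM, 2.81-fold higher (log2 fold change 1.49 ± 0.29, FDR 1.85e-04). Without replicate 1 the log2 fold changes were 1.19 ± 0.19 (FDR 3.78e-06) and 1.16 ± 0.19 (FDR 4.41e-06).

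miR-130a-3p was called higher with shRELA, at 254 to 335 CPM against 30.1 to 204 CPM with shNeg (log2 fold change 1.07 ± 0.31, FDR 0.00837). It fell short of the fold change a call needs without shNeg replicate 1 (0.74 ± 0.21, FDR 0.00629), and lost the call on its FDR without shNeg replicate 2 or shRELA replicate 1, 2 or 3 (FDR 0.0161 to 0.0248). It was not called either with DESeq2, median-ratio size factors, a mean of at least 10 CPM, library totals or only the groups compared (log2 fold changes 0.65 to 1.14, FDR 0.0156 to 0.123). With shRELB it was 222 to 365 CPM, did not overlap with shNeg, and was not called (0.91 ± 0.31, FDR 0.0261, and 0.58 ± 0.21, FDR 0.0344, without replicate 1). miR-454-5p was called higher with shRELA (log2 fold change 1.63 ± 0.47, FDR 0.00796), at 15 to 30 counts a library against 0 to 11, and was not called without replicate 1 (1.24 ± 0.41, FDR 0.0211), without shNeg replicate 2 or 4, or without shRELA replicate 2, 3 or 4 (FDR 0.01 to 0.0223). Library totals (1.23), median-ratio size factors (1.49) and only the groups compared (1.72) ended this call too (FDR 0.0137 to 0.143). With shRELB its log2 fold change was 1.36 ± 0.47 (FDR 0.0295), and 0.97 ± 0.41 (FDR 0.0812) without replicate 1.

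The members with low counts and the 5p arm of miR-130b were not called in spheroids. miR-301a-3p had log2 fold changes of 0.11 ± 0.37 (FDR 0.855) with shRELA and 1.00 ± 0.36 (FDR 0.0352) with shRELB, where it ranged from 18.6 to 43.7 CPM against 3.67 to 24.6 CPM with shNeg. Without replicate 1 these were −0.20 ± 0.31 (FDR 0.685) and 0.69 ± 0.30 (FDR 0.091). miR-301b-3p, at 0 to 11 counts in every spheroid library, had −0.87 ± 0.83 (FDR 0.464) and 0.16 ± 0.75 (FDR 0.911), which leaves changes of either sign within its error, and −1.25 ± 0.78 (FDR 0.248) and −0.25 ± 0.69 (FDR 0.838) without replicate 1. miR-130b-5p measured 131, 243, 275 and 312 CPM with shNeg, 331, 290.5, 314 and 327 CPM with shRELA and 253, 236, 324 and 168 CPM with shRELB. Its groups overlapped in both comparisons, with log2 fold changes of 0.39 ± 0.22 (FDR 0.19) and 0.03 ± 0.22 (FDR 0.953). Without replicate 1 they were 0.19 ± 0.19 (FDR 0.494) and −0.18 ± 0.19 (FDR 0.539), the latter with its sign changed.

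In spheroids with shRELA, 4 of 7 members were called, all higher, where 15.1% of all tested miRNAs were called and 7.51% were called higher. The count was 2 without shNeg replicate 1. With shRELB, 2 of 7 were called, both higher, where 13.4% of all tested miRNAs were called and 7.29% were called higher, and the count was again 2 without that library. The groups did not overlap for 4 members with shRELA and 3 with shRELB, all higher, against 13.4% and 11.9% of all tested miRNAs. The members' median log2 fold change was 1.07 with shRELA and 1.00 with shRELB (0.74 and 0.69 without replicate 1), beside 0.09 and 0.16 over all tested miRNAs. With library totals in place of TMM, the medians of all tested miRNAs were −0.25 and −0.09, and the share of calls that were higher went from 49.6% to 19.1% with shRELA and from 54.5% to 34.1% with shRELB. miR-454-3p and miR-130b-3p were called higher under that scaling too. When only the 2 groups compared were fitted, 1 member was called with shRELA and none with shRELB. In these fits miR-454-3p had an FDR of 0.0102 with shRELB, and miR-130b-3p had 0.0129 with shRELA and 0.0724 with shRELB.

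In adherent culture, all 7 members had positive log2 fold changes with shRELA, from 0.27 (miR-130a-3p) to 0.79 (miR-454-3p, SE 0.28, FDR 0.0773), and none was called, in a comparison that called 3.76% of all tested miRNAs. For each member the groups overlapped. Without spheroid shNeg replicate 1 in the shared fit, miR-454-3p had 0.78 ± 0.21 on the log2 scale (FDR 0.00679). That was below 2-fold and not called. Adherent shRELA replicates 1 and 4 were high for all 3 abundant 3p members and replicates 2 and 3 lower, as in miR-454-3p at 2007, 1179, 957 and 2692 CPM against 879 to 1142 CPM with shNeg. In edgeR's test 2 of the members had an unadjusted p below 0.05, as did 164 of all 905 tested miRNAs. DESeq2 and limma called no member.

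With shRELB in adherent culture no member was called, in a comparison that called 7.07% of all tested miRNAs. miR-130a-3p, at 1288 to 1407 CPM against 1964 to 2218 CPM with shNeg, was the member whose groups did not overlap (log2 fold change −0.65 ± 0.30, FDR 0.166), and 15.9% of all tested miRNAs were lower without overlap. Its replicates lay close together in both groups, and the fit shares its estimate of spread across all 6 groups. Without spheroid shNeg replicate 1 in that fit, its log2 fold change was −0.66 ± 0.19 (FDR 0.00675), below 2-fold and not called. Over 9 alternatives other than leaving out a library, the log2 fold change was −0.75 to −0.53 and the FDR 5.80e-07 to 0.332. The FDR was below 0.05 in 2 of the 9, and miR-130a-3p was called in 0. The other 6 members had log2 fold changes between −0.32 and 0.14 and overlapped. miR-130a-3p was the member with an unadjusted p below 0.05 in edgeR's test, where 224 of all 905 tested miRNAs had one. DESeq2 and limma called no member.

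The difference between the cultures in the response to each shRNA was tested as an interaction, spheroid minus adherent. For RELB, miR-454-3p (1.90 ± 0.40 on the log2 scale, FDR 8.54e-04) and miR-130a-3p (1.57 ± 0.43, FDR 0.00998) were called, 2 of 7 members, both higher, beside 8.51% of all tested miRNAs called and 4.64% called higher. The call of miR-130a-3p was lost in 10 of the 16 fits that left out 1 library of these groups, among them each adherent library (FDR 0.0109 to 0.0321). It was also lost with library totals (1.15), median-ratio size factors (1.43), limma (1.85), a mean of at least 10 CPM (1.32) and only the groups compared (1.63), at FDRs of 0.0129 to 0.0677. miR-130b-3p (1.45 ± 0.40, FDR 0.0106) and miR-454-5p (1.68 ± 0.58, FDR 0.0406) had values of like size and were not called. Without spheroid shNeg replicate 1, 3 members were called, with 1.66 ± 0.32 for miR-454-3p (FDR 1.81e-04), 1.24 ± 0.28 for miR-130a-3p (FDR 9.56e-04) and 1.12 ± 0.26 for miR-130b-3p (FDR 0.001). The other 4 then had 1.29 (miR-454-5p, FDR 0.0573), 0.55 (miR-301a-3p), 0.01 (miR-130b-5p) and −0.0062 (miR-301b-3p, which changed sign).

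For RELA, no member was called, beside 7.62% of all tested miRNAs, and the values ran from −1.36 (miR-301b-3p) to 1.07 (miR-130b-3p, SE 0.40, FDR 0.0722). Without spheroid shNeg replicate 1 none was called either, and the values were 0.75 for miR-130b-3p (FDR 0.0365), 0.71 for miR-454-3p, 0.59 for miR-454-5p, 0.47 for miR-130a-3p, −0.18 for miR-130b-5p (0.02 with it), −0.86 for miR-301a-3p and −1.75 for miR-301b-3p. In edgeR's test 2 of the members had an unadjusted p below 0.05, as did 254 of all 905 tested miRNAs. DESeq2 and limma called no member. The change of miR-454-3p with shRELA was 0.79 ± 0.28 in adherent and 1.74 ± 0.29 in spheroid culture, a difference of 0.95 ± 0.40 (FDR 0.106).

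The shRNAs were also compared with each other. In spheroids, no member was called between shRELB and shRELA, where 6.63% of all tested miRNAs were called. The log2 difference was −0.03 ± 0.28 for miR-130b-3p, 0.06 ± 0.28 for miR-454-3p and −0.16 ± 0.30 for miR-130a-3p. miR-301a-3p had the lowest FDR (0.89 ± 0.34, FDR 0.0733). In edgeR's test 1 member had an unadjusted p below 0.05, as did 258 of all 905 tested miRNAs. DESeq2 and limma called no member. In adherent culture all 7 members had negative log2 fold changes of shRELB against shRELA, from −0.40 to −0.98, and none was called, where 10.9% of all tested miRNAs were called. There, 4 members had an unadjusted p below 0.05 in edgeR's test, as did 294 of all 905 tested miRNAs. DESeq2 called 1 member and limma none. miR-454-3p (−0.89 ± 0.28, FDR 0.0176) and miR-130a-3p (−0.93 ± 0.30, FDR 0.0226) had the lowest FDRs, and both were called without adherent shRELA replicate 3 (−1.09, FDR 0.0035, and −1.13, FDR 0.00599). Without spheroid shNeg replicate 1 in the shared fit they had −0.89 (FDR 8.94e-04) and −0.92 (FDR 9.83e-05), below 2-fold and not called.

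Because ratios of counts within a library do not depend on its scaling, 4 such ratios were compared after the levels had been seen. Each was tested in 7 comparisons by a two-sided exact permutation test, 28 tests in all. With 4 libraries against 4 the smallest p possible is 0.0286. It was reached in 16 tests, each at 0.05 and not below it after Benjamini-Hochberg adjustment over the 28.

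The balance of the arms of the miR-130b hairpin, shown above, differed between the cultures. miR-130b-5p made up 30.1%, 37.1%, 27.9% and 27.4% of the counts of both arms in the adherent shNeg libraries, and 81.0%, 66.1%, 61.2% and 61.0% in the spheroid shNeg libraries. The 5p arm was the minor one in each of the former and the major one in each of the latter (30.6% ± 4.47 against 67.3% ± 9.41, SD, exact permutation p 0.0286). Replicate 1 was the highest, and the mean without it was 62.8% ± 2.89 (n = 3), with replicates 2 to 4 still above every library of the other groups.

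In spheroids the 5p share was 42.7% to 49.9% with shRELA and 32.1% to 42.2% with shRELB. Both groups lay below every spheroid shNeg library and above every adherent library of the same shRNA, with the exact permutation p at 0.0286 in each of these comparisons. The mean was 45.4% with shRELA and 39.3% with shRELB. In adherent culture the share was 30.3% with shRELA (exact permutation p 0.943) and 27.5% with shRELB (exact permutation p 0.314), and both overlapped with shNeg. These values follow from the levels above, since miR-130b-3p differed between the groups by more than miR-130b-5p.

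For the miR-454 hairpin, the 5p arm was the minor one in every library, at means of 1.83% to 3.57% of both arms by group (3.94% in spheroid shNeg without replicate 1, which had no count of miR-454-5p). Its share differed without overlap only between spheroid and adherent shRELA libraries (3.57% against 2.06%, exact permutation p 0.0286). The 5p counts in spheroids were 0 to 30 a library, which limits the size of difference that is detectable.

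The ratio of miR-130a-3p to miR-130b-3p, members from different chromosomes, was 2.22, 2.54, 2.26 and 2.24 in adherent shNeg libraries and 0.976, 1.08, 1.13 and 1.02 in spheroid shNeg libraries. miR-130a-3p was thus the more abundant in adherent culture and level with miR-130b-3p in spheroids (exact permutation p 0.0286). The spheroid shNeg mean was 1.05, and 1.08 without replicate 1. The ratio was lower with each shRNA in spheroids, at a mean of 0.785 with shRELA and 0.711 with shRELB, with no overlap with shNeg (exact permutation p 0.0286 for each). In adherent culture it was 1.44 with shRELB (exact permutation p 0.0286) and 2.01 with shRELA (exact permutation p 0.0571, the groups overlapped).

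miR-454-3p and miR-301a-3p lie in the same host gene, yet their ratio was 26.0 to 35.7 in adherent and 3.83 to 9.60 in spheroid shNeg libraries (exact permutation p 0.0286). With shRELA in spheroids it was 14.5 to 19.1, above every shNeg library (exact permutation p 0.0286), and with shRELB 6.44 to 18.5, which overlapped with shNeg (exact permutation p 0.229). The ratio was lower in spheroids than in adherent culture for shRELA and shRELB too (exact permutation p 0.0286 for each). It rests on 5 to 35 counts of miR-301a-3p in the spheroid shNeg libraries, where the mean was 6.39, and 5.32 without replicate 1.

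**Figure D3:**
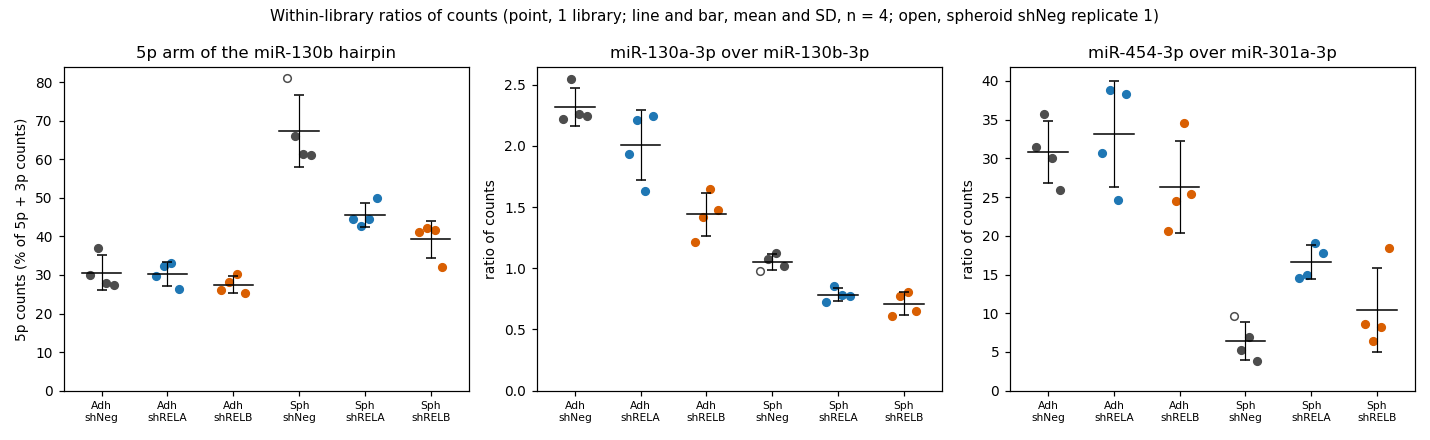
Within-library ratios by group: share of the 5p arm in the counts of the miR-130b hairpin (%), miR-130a-3p over miR-130b-3p, and miR-454-3p over miR-301a-3p (point, 1 library; line and bar, mean and SD, n = 4; open point, spheroid shNeg replicate 1). The 5p share of miR-130b is highest in spheroid shNeg (61.0% to 81.0%) and at most 49.9% in every other library, and the ratio of miR-130a-3p to miR-130b-3p is at least 1.22 in every adherent library and at most 1.13 in every spheroid library.

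Summed over the 5 3p members, the family stood at 4031 ± 222 CPM in adherent shNeg, 5537 ± 2224 CPM in adherent shRELA and 3230 ± 53.5 CPM in adherent shRELB libraries. In spheroids it stood at 371 ± 197 CPM with shNeg (462 ± 93.9 CPM without replicate 1), 966 ± 84.4 CPM with shRELA and 956 ± 187 CPM with shRELB. The spheroid sums lay below the adherent sums in every library.

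The makeup of that sum differed as well. miR-130a-3p held 52.0% of the summed counts in adherent shNeg libraries, 45.6% with shRELA and 41.2% with shRELB, and 36.4%, 30.8% and 27.8% in the spheroid groups in the same order. miR-130b-3p held 22.5%, 23.0% and 29.0% in the adherent groups and 34.6%, 39.4% and 39.4% in the spheroid groups. miR-454-3p held 24.5%, 30.3% and 28.5% in the adherent groups and 24.5%, 27.9% and 29.3% in the spheroid groups. miR-301a-3p held 0.80% in adherent and 3.98% in spheroid shNeg libraries, and miR-301b-3p at most 0.46% as a mean of any group. Replicate 1 weighed on the spheroid shNeg means, which without it were 38.5% for miR-130a-3p, 35.9% for miR-130b-3p, 21.0% for miR-454-3p, 4.08% for miR-301a-3p and 0.61% for miR-301b-3p.

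**Figure D4:**
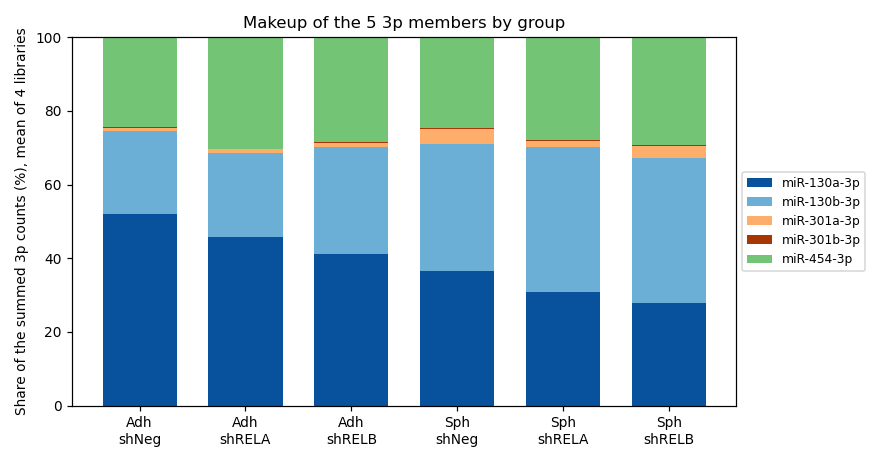
Share of each 3p member in the summed counts of the 5 3p members, as the mean of 4 libraries in each of the 6 groups (stacked bars, percent). miR-130a-3p shrinks from 52.0% in adherent shNeg to 27.8% in spheroid shRELB while miR-130b-3p grows from 22.5% to 39.4%.

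The likeness of profiles was described by the root mean square difference of the 6 group means of log2(CPM + 1), each centred on its own mean. Between members it was smallest for miR-301a-3p with miR-301b-3p (0.29), miR-130b-3p with miR-454-3p (0.35) and miR-130a-3p with miR-454-3p (0.37). For members that lie next to each other in the genome it was 0.69 (miR-130b-3p with miR-301b-3p) and 0.93 (miR-454-3p with miR-301a-3p). Both values lay within the range of pairs on different chromosomes, 0.29 to 1.15 (miR-130a-3p with miR-301a-3p). Group means of miR-301b-3p were 1.28 to 7.75 CPM, where the 1 added to CPM flattens a profile. Its distances, here and below, therefore cannot be set against those of the abundant members.

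Of the other tested miRNAs that averaged 10 CPM or more (334, or 335 for miR-301b-3p), the profiles most like those of the 3p members were miR-374b-5p, miR-4521 and miR-106a-5p for miR-130a-3p (0.25, 0.27 and 0.28, where the median miRNA was at 1.56). For miR-130b-3p they were miR-18a-5p, miR-454-5p and miR-17-5p (0.15, 0.22 and 0.25, median 1.09), and for miR-454-3p miR-4521, miR-32-3p and miR-15b-3p (0.23, 0.25 and 0.31, median 1.38). For miR-301a-3p they were miR-30c-1-3p, miR-1287-5p and miR-128-3p (0.18, 0.21 and 0.22, median 0.77). For miR-301b-3p they were miR-339-3p, miR-30e-5p and miR-19a-3p (0.20, 0.23 and 0.23, median 0.82). These are descriptions over 6 group means that share libraries, and carry no test.

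Related miRNAs outside the family were counted for context. The remaining arms of the hairpins, miR-130a-5p, miR-301a-5p and miR-301b-5p, were called lower in spheroids for 2, 2 and 1 of 3 arms with shNeg, shRELA and shRELB. miR-130a-5p was also called higher with shRELA in spheroids, at 12, 2, 11 and 12 counts against 0, 0, 2 and 0 with shNeg. A pair of lists carries the family seed shifted by 1 base, the miR-19 pair with the seed GUGCAAA and miR-148a-3p, miR-148b-3p and miR-152-3p with CAGUGCA. Of the miR-19 pair, 1, 2 and 1 of 2 were called lower in spheroids with shNeg, shRELA and shRELB, and none was called in any knockdown comparison. Of the latter list, miR-148a-3p was called lower in shNeg spheroids (log2 fold change −1.37 ± 0.26, FDR 3.91e-05) and higher with shRELA in spheroids (1.15 ± 0.26, FDR 9.87e-04). miR-152-3p was called higher with shRELB in spheroids (2.34 ± 0.42, FDR 4.97e-05), and miR-148b-3p was called in neither culture nor knockdown comparison.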

How the data were processed

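Small RNA libraries of OV90 cells were made with a kit that tags each miRNA molecule with a unique molecular index (UMI) and sequenced as single-end reads. According to the methods, the authors removed adapters (Cutadapt) and matched the reads to miRBase (miRDeep2). Whether UMI duplicates were merged before counting is not given in the sources used here. The deposited table holds estimated counts for each mature miRNA without scaling. They were taken as counts although the title of the table names both counts and CPM, since library totals differ and nearly all values are whole. The 3.04% of non-zero values that were not whole, on 84 miRNAs and on no member, were rounded.

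Of 2656 miRNAs, 905 reached 1 CPM in 4 or more libraries and were tested. Counts were scaled by TMM and the 24 libraries fitted together by the quasi-likelihood test of edgeR, by group and with no covariate (common dispersion 0.0888). Benjamini-Hochberg FDRs were taken over all tested miRNAs, and calls were made where that FDR was under 0.01 and levels differed more than 2-fold, the thresholds of the study. A standard error was obtained from each log2 fold change and the square root of its F statistic, as their quotient. R 4.3.3 ran edgeR 4.0.16, with DESeq2 1.42.0 and limma 3.58.1 for alternatives, and the test was tested on simulated data. All 7 members are named whatever their values, with the related miRNAs of fixed lists and, for each 3p member, the 3 miRNAs of the most similar profile. The members and lists were chosen with earlier results of these data known. Samples were grouped by title, genotype and growth condition, and the labels give no batch. No pair of libraries within a group agreed within sampling noise (chi-square per degree of freedom at least 8.47). The alternatives were other filters, scalings, tests and thresholds, a block for the replicate number, fits of the compared groups alone, and each library left out in turn; the within-library ratios were added after seeing the data. Raw reads, qRT-PCR and functional assays were not analysed here.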

Additional observations from a re-analysis of the deposited data

Results flagged for a closer look

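In spheroid shRELB replicate 4, the 5p share of the miR-130b counts was 32.1%, below the other 3 libraries of its group (41.0% to 42.2%). In adherent shNeg replicate 2, the ratio of miR-130a-3p to miR-130b-3p was 2.54, above the other 3 libraries (2.22 to 2.26). Each was singled out because its gap to the nearest library of the group was large for the range of the group by Dixon's criterion. Of 66 sets of 4 libraries examined, 2 met it, where chance gives about 1 in 20.

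The change with shRELB differed between the cultures for miR-454-3p, by 1.90 on the log2 scale, and for miR-130a-3p, by 1.57 on the log2 scale, in edgeR's test of the interaction. With 1 library left out, the call of miR-454-3p was kept in all 16 fits and that of miR-130a-3p was lost in 10 of 16. miR-130b-3p had a value near that of miR-130a-3p (1.45, FDR 0.0106) and was not called.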

How the results depend on the processing

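Of 1452 values of single members recomputed under an alternative, 1335 kept their direction and their side of the threshold, 50 lost a call, 27 gained one and 40 changed sign. The calls of miR-130a-3p, miR-130b-3p and miR-454-3p in the 3 culture comparisons were kept under every alternative run, and miR-454-3p was called higher with shRELA in spheroids and in the RELB interaction under every alternative run. The causes of the changes below were not tested.

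For the RELB interaction, where 2 members were called, DESeq2 and an FDR below 0.05 each gave 4, and library totals, median-ratio size factors, limma, a mean of at least 10 CPM and only the groups compared each gave 1, with 1 to 4 when each library was left out in turn (4 without spheroid shNeg replicate 3). With shRELA in spheroids, where 4 were called, library totals and median-ratio size factors each gave 2, only the groups compared gave 1, and leaving out a library gave 2 to 4, with 2 without shNeg replicate 1 or 2 or shRELA replicate 2 or 3. With shRELB in spheroids, where 2 were called, an FDR below 0.05 gave 4 and only the groups compared gave 0. Where none was called, DESeq2 gave 1 for adherent shRELB against shRELA (0 to 2 with a library left out, 2 without adherent shRELA replicate 3), and no filter gave 1 for the RELA interaction (0 to 1 with a library left out, 1 without spheroid shNeg replicate 4).

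Replicate numbers gave no sign of pairing the libraries. Deviations of same-numbered libraries from their group means correlated with r of −0.52 to 0.43 (median −0.02). Libraries of other numbers gave −0.56 to 0.56 (median −0.00084), and 3 of 24 libraries correlated best with their own number. With 4 libraries a group, this check cannot exclude a pairing. With the replicate number as a block, the RELB interaction called 1 member in place of 2, as miR-130a-3p lost its call (FDR 0.0104). Spheroid against adherent shNeg called 4 in place of 5, without miR-301a-3p (FDR 0.0104). Spheroid shRELA against shNeg called 3 in place of 4, without miR-454-5p (FDR 0.0112). No other call changed under the block.

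The sign changes were all in values that were not called. For miR-130b-5p, with values of 0.02 and 0.21 in the RELA and RELB interactions and 0.39 and 0.03 with shRELA and shRELB in spheroids, they were as follows. DESeq2 gave −0.19 in the RELA interaction and −0.13 with shRELB, median-ratio size factors gave −0.19 and −0.13, and a mean of at least 10 CPM gave −0.15 and −0.15, with −0.037 in the RELB interaction. Library totals gave −0.27, −0.18, −0.024 and −0.25 in these 4 comparisons, and only the groups compared gave −0.14 with shRELB. Leaving out a library gave −0.18 to 0.25 in the RELA interaction and −0.18 to 0.12 with shRELB. For miR-130b-3p, adherent shRELB gave −0.0037 with no filter, −0.048 with only the groups compared and −0.032 to 0.11 with a library left out, and spheroid shRELB against shRELA gave 0.10 with library totals and 0.0027 with a mean of at least 10 CPM. For miR-301a-3p with shRELA in spheroids, DESeq2 and median-ratio size factors gave −0.039, a mean of at least 10 CPM −0.10, library totals −0.30 and leaving out a library −0.20 to 0.41. For miR-301b-3p, library totals gave −0.11 with shRELB in spheroids, and leaving out a library gave −0.44 to 1.21 there, −1.60 to 0.22 with shRELA and −0.20 to 1.62 in the RELB interaction. For miR-454-3p, library totals gave 0.031 for adherent shRELB, and leaving out a library −0.11 to 0.20 for spheroid shRELB against shRELA. With a library left out, the difference in the 5p share of miR-130b was −1.39 to 1.85 percentage points for adherent shRELA, and that of miR-454 was −0.28 to 0.15 for adherent shRELA, −0.36 to 1.21 for spheroid shRELA and −1.17 to 0.41 for spheroid shRELB. Depth limits miR-301b-3p and miR-454-5p, with at most 11 and 30 counts in any spheroid library.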
